A study of Mus musculus with 6 samples.

Results

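The 36 genes described here encode the enzymes, transporters and regulators of glucose breakdown to lactate and of the linked response to low oxygen. They were taken by gene symbol from the deposited table of 22706 mouse genes, and all 36 were present and passed the minimum mean value of 5 for testing, as did 15915 genes in all. Glycolysis is a known target of SIRT6, a histone deacetylase, and the list was chosen by pathway but with earlier results of these data known, so shares of the list are descriptions and not independent evidence. RNA came from muscle stem cells (MuSCs), the cells that regenerate skeletal muscle, sorted straight from muscle by flow cytometry and not cultured. By the study's methods, magnetic beads first removed cells carrying Sca1, CD45 or CD31, surface proteins of fibro-adipogenic, blood and endothelial cells, and the sort then took cells positive for Integrin-a7 and CD34 or for a fluorescent reporter. Each of 3 groups held 2 libraries: wild-type control mice, mdx mice (C57BL/10ScSn-Dmdmdx/J, dystrophin-deficient) and Sirt6mKO/mdx animals, in which the mdx mutation is combined with floxed Sirt6 alleles (exons 4 to 6) and Pax7-ICNCre. The labels give C57BL/6 as the strain of every sample, and the study's legends for its MuSC RNA-seq results give male mice, of 12 weeks in the supplement and, in the main text, of 8 to 12 weeks where mdx is set against control and of 12 to 16 weeks where Sirt6mKO/mdx is set against mdx. Pax7-ICNCre is a constitutive Cre under the Pax7 promoter, so that the deletion extends to muscle fibres formed from these cells and is not limited to MuSCs. The labels number the libraries of a group without naming animals, so the p-values measure the spread between these libraries.

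Glycolysis turns glucose into pyruvate in the cytosol. Glucose enters through GLUT transporters, is trapped by hexokinase, and is committed to the pathway by phosphofructokinase, whose activity PFKFB enzymes tune through an allosteric activator. Pyruvate is either reduced to lactate by lactate dehydrogenase and exported by monocarboxylate transporters, or oxidised in mitochondria by pyruvate dehydrogenase, which pyruvate dehydrogenase kinases switch off. Hypoxia-inducible factors (HIFs) are transcription factors that prolyl hydroxylases mark for degradation when oxygen is present, and SIRT6 is known as a corepressor of HIF target genes of glycolysis. In Sirt6mKO mice without the mdx mutation, the study found no evidence that glycolytic genes under such repression elsewhere were activated. Quiescent MuSCs are known to rely largely on fatty acid oxidation and to take up more glucose when they are activated.

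The approximate depth of the libraries ranged from 4397632 to 9745218 reads, and the deposited values are normalized read counts, that is reads per gene divided by 1 size factor per library (0.537 to 1.53) and rounded. A single read was therefore worth 0.655 to 1.86 units, which sets the precision of low values. Sirt6 itself measured 41 and 32 in the control, 33 and 40 in the mdx and 37 and 30 in the Sirt6mKO/mdx libraries, and a value per gene cannot show the loss of exons 4 to 6, so the last are called Sirt6mKO/mdx-labelled. Xist, expressed from the inactive X of female cells, measured 16772 and 12950 in the control libraries and at most 34 in the other 4, and the Y-linked Ddx3y measured 3 and 8 in the control libraries and between 1024 and 1767 in the other 4. This difference cannot be told apart from the genotype in any comparison with control, and it touches the 2 members on the X chromosome, Pgk1 and Pdha1, most directly. All 10 MuSC markers were above 0 in every library, among them Pax7 with 2167 to 3236.

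In mdx MuSCs, 9 of the 36 genes were lower than in control and none was higher. They were Slc2a1, Slc2a3, Hk2, Pfkp, Pfkfb3, Pdk1, Pdk4, Epas1 and Vegfa, with log2 fold changes from -1.06 to -3.15. Called means an adjusted p of at most 0.05 (limma, Benjamini-Hochberg over all tested genes, two-sided) and a change of at least 2-fold on the log2(value + 1) scale. Among all tested genes 7.34% were called lower and 6.89% higher, against 25% and 0% of the members. No overlap between mdx and control values was seen for 17 members lower in mdx and 2 higher (Pdha1 and Hif1a), where 28.3% and 28.7% of all tested genes were so separated. The median log2 fold change was -0.62 over the members and 0.00 over all tested genes, and 31 of 36 values were negative. At an unadjusted p of at most 0.05 stood 15 of the 36 members and 31% of all tested genes. Without mdx 2, whose muscle fibre markers were lowest, the median was -0.32 and 5 members were called lower, with 5.03% of all tested genes. With no minimum mean 5 were called lower, and 3 with a single prior variance for all genes, where 2.54% and 2.26% of all genes were. In bulk RNA, a change in the share of a cell type and a change in RNA per cell cannot be told apart.

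In the Sirt6mKO/mdx-labelled libraries, 7 members were higher than in mdx (Slc2a1, Slc2a4, Hk2, Pfkfb3, Pdk4, Epas1 and Vegfa) and Hk1 was lower. This was 19.4% and 2.78% of the members, against 5.62% and 2.54% of all tested genes. Libraries were separated for 15 members in the higher and 10 in the lower direction, where 28.8% and 27.2% of all tested genes were. The members' median log2 fold change was 0.30, with 0.02 over all tested genes, and it was -0.05 without mdx 2, when 3 members were called higher and none lower, with 2.17% and 0.258% of all tested genes. Leaving out mdx 1, Sirt6mKO/mdx 1 or Sirt6mKO/mdx 2 left 4, 3 and 2 members called higher and none lower, and the shares over all tested genes fell as well, to 2.7%, 1.14% and 1.26% higher and 0.327%, 0.132% and 0.333% lower. With no minimum mean 2 members were called higher and none lower, with 0.685% and 0.0623% of all genes. With a single prior variance 0 of 15915 genes, members included, were called in either direction (limma), 11 members standing at an unadjusted p of at most 0.05. Scaling each library to the same total moved the median of all tested genes to -0.58 and that of the members to -0.32, with 4 members called higher and 8 lower, against 3.01% and 18.5% of all tested genes. The 10 most abundant genes took 32.6% and 30% of the summed values of the Sirt6mKO/mdx-labelled libraries, 22.7% and 22.9% of the mdx and 21.7% and 11.7% of the control libraries. Relative to all tested genes the members' median was higher by 0.28 with the deposited scaling and by 0.26 with total counts, and after centring by GC content the members' median itself was 0.03.

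Against control, the same libraries had 3 members lower (Hk1, Gapdh and Pgam1) and none higher. Over all tested genes 2.68% were called lower and 5.19% higher. Of the 16 members whose libraries were separated all were lower, with 25.3% of all tested genes separated in that direction and 26.3% in the other. The members' median was -0.38 (0.01 over all tested genes), and 10 members stood at an unadjusted p of at most 0.05 (24.1% of all tested genes). Without Control 2 only 1 call of the 3 was made, and none without Sirt6mKO/mdx 1 or without Sirt6mKO/mdx 2, as the share of all tested genes called lower fell to 0.93%, 0.66% and 0.289%. With total counts 15 members were lower and their median was -0.98, where 17% of all tested genes were called lower and the median of all was -0.58. With no minimum mean or a single prior variance for all genes, none of the 3 calls was made (limma), with 0.231% and 0.138% of all genes called lower and 9 and 5 members standing at an unadjusted p of at most 0.05. The 3 comparisons share libraries pairwise, so a value that is low in both mdx libraries moves the first and the second at once. The plot of members by library shows the block of low mdx values for Hk2, Pdk4 and Vegfa beside rows with little change.

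**Figure D1:**
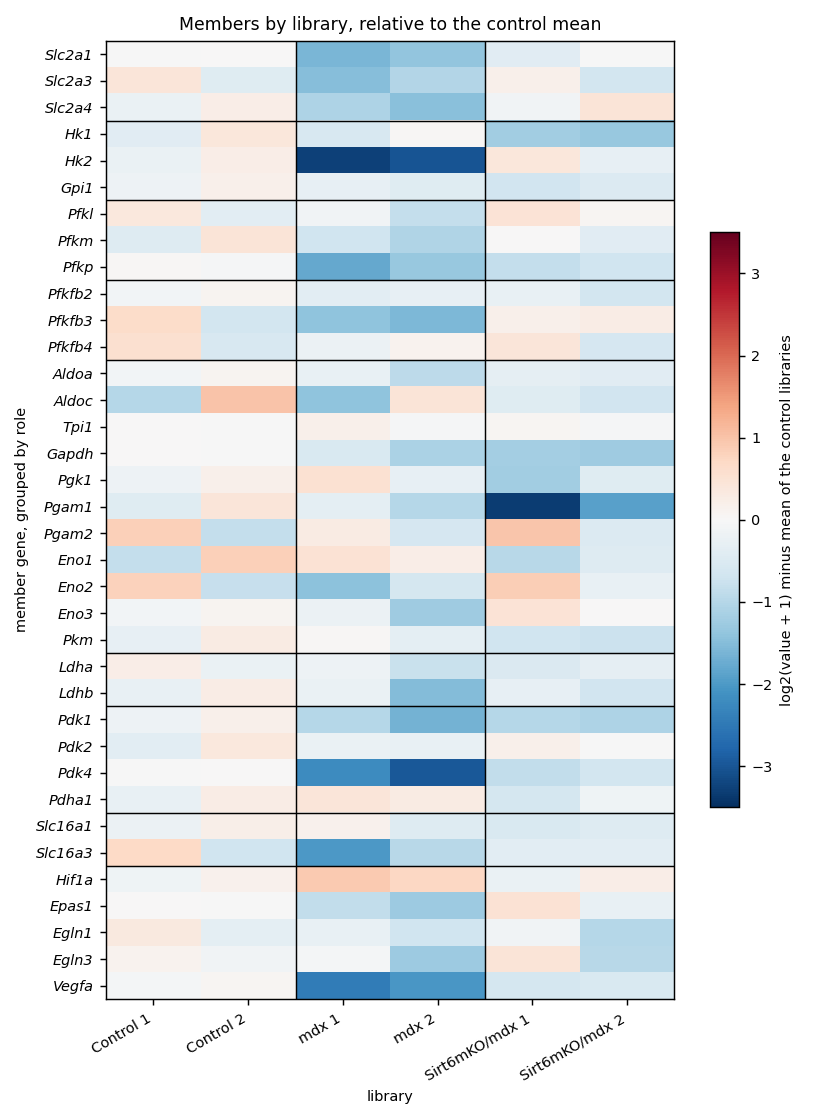
Each row is a member, grouped by role, each column a library, and colour gives log2(value + 1) minus the mean of the 2 control libraries. Hk2, Pdk4 and Vegfa are darkest blue in mdx, Hif1a is red there, and Pgam1 is darkest in the Sirt6mKO/mdx-labelled pair.

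The windows of 250 bases upstream of the start sites of Hk2 and Vegfa, lower in mdx and higher again in the Sirt6mKO/mdx-labelled pair, and of Ldha, which was called in no comparison, are printed because HIF is known to bind the core letters ACGTG or GCGTG in the regulatory regions of its targets. Capitals mark these cores on either strand (on the printed strand also CACGT or CACGC), and the letters are RefSeq's for GRCm38.p6, 5′ to 3′ on the gene's strand.
Hk2, chr6:82774455-82774704, minus strand: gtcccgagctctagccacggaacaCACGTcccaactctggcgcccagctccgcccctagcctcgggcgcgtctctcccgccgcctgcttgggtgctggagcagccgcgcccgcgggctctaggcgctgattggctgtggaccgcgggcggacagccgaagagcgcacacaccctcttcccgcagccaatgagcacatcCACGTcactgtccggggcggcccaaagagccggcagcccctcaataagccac
Vegfa, chr17:46032378-46032627, minus strand: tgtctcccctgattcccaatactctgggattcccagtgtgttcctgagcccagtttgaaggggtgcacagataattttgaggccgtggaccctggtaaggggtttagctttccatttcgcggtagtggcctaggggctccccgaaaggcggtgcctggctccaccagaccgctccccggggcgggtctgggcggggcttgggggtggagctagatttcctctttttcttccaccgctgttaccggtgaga
Ldha, chr7:46845554-46845803, plus strand: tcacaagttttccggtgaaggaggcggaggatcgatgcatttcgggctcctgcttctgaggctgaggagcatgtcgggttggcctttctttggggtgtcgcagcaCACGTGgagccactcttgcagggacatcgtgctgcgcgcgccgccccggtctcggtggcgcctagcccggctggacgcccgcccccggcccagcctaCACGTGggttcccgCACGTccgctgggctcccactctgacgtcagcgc
None of these windows holds an annotated exon. The Hk2 window holds 2 matches to ACGTG, the Ldha window 5 (2 CACGTG, which reads the same on both strands and so counts as ACGTG on each, and 1 more), and the Vegfa window none. The Ldha start used is the RefSeq start nearest to that of the table, 4329 bases inside the gene as the table bounds it. RefSeq windows were found for 33 of the 36 members. These have 50 windows, as a gene with several starts has several, and a gene was counted where any of its windows held the letters, as Vegfa was for ACGTG through a start inside the gene. ACGTG was present upstream of 17 of the 33 (51.5%) and of 18.5% of 27025 genes, GCGTG of 21 (63.6%) and 30.9%, and CACGTG, which contains ACGTG, of 7 (21.2%) and 6.86%. Counted per window, the shares were 42% of 50 and 16.6% of 32851 for ACGTG, 52% and 28.2% for GCGTG, and 14% and 6.02% for CACGTG. Windows of Aldoa, Eno1 and Pfkm overlap within the gene, so a site can be counted more than once. The genes compared were not matched for GC content, which ran from 36.4% to 86% in the member windows. A match describes letters and is not a measured binding site, and no match says only that these letters are not in this window.

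Of the 3 glucose transporter genes, Slc2a1 and Slc2a3 fell in mdx, and Slc2a1 and Slc2a4 rose from mdx to Sirt6mKO/mdx. Slc2a1 encodes GLUT1, the widespread basal transporter, Slc2a3 the high-affinity GLUT3, and Slc2a4 the insulin-responsive GLUT4 of muscle and fat. Slc2a1 (ENSMUSG00000028645, GRCm38 chr4:119108711-119137330) measured 213 and 219 in the control pair, 71 and 82 in the mdx pair, then 163 and 212 in the Sirt6mKO/mdx-labelled pair. Both mdx values lay below all others, and both Sirt6mKO/mdx values lay below the control pair. The log2 fold change was -1.49 ± 0.30 (SE) in mdx (adjusted p = 0.0035) and 1.27 ± 0.30 from mdx to Sirt6mKO/mdx (adjusted p = 0.0168). The first call was lost only with a single prior variance (adjusted p = 0.0596). The second was called under 10 of 17 alternatives, being lost without mdx 1 (1.17), mdx 2 (1.38), Sirt6mKO/mdx 1 (1.46) or Sirt6mKO/mdx 2 (1.09), with total counts (0.65), with no minimum mean (adjusted p = 0.0853) and with a single prior variance (adjusted p = 0.139).

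Slc2a3 measured 221 and 124 in the control pair, 58 and 81 in the mdx pair, then 186 and 106 in the Sirt6mKO/mdx-labelled pair. The mdx pair was again lowest, but library 1 of each other group was well above library 2. The fall in mdx was -1.26 ± 0.38 (adjusted p = 0.0359), and the difference from mdx to Sirt6mKO/mdx, 1.02 ± 0.38, did not pass (adjusted p = 0.111). The fall was called without Control 2 and lost without Control 1 (-0.85), mdx 1 (-1.02), mdx 2 (-1.50), or either Sirt6mKO/mdx library (-1.26). It was also lost with no minimum mean, a single prior variance, only the groups compared or GC centring (adjusted p = 0.136, 0.161, 0.0591 and 0.0562), and 8 of 17 alternatives called it. Slc2a4 measured 62 and 87, 34 and 26, and 68 and 101 in the same order. It was higher in the Sirt6mKO/mdx-labelled pair than in mdx by 1.45 ± 0.43 (adjusted p = 0.0496), and in mdx its difference from control of -1.28 ± 0.43 did not pass (adjusted p = 0.057). The call was lost without mdx 1 (1.64), mdx 2 (1.26), Sirt6mKO/mdx 1 (1.73) or Sirt6mKO/mdx 2 (1.17), and with total counts (0.83). It was also lost with a pseudocount of 0.1 or 8, no minimum mean, a single prior variance, only the groups compared (adjusted p = 0.0547, 0.05, 0.137, 0.151 and 0.051) or GC centring (1.22, adjusted p = 0.0958), and 6 of 17 alternatives called it. The summed value of the 3 transporters was 496 and 430 in the control pair, 163 and 189 in the mdx pair, then 417 and 419 in the Sirt6mKO/mdx-labelled pair, while the share of Slc2a1 within the family, per exonic length, stayed between 50.7% and 59.7% in all 6 libraries.

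Of the hexokinases, Hk2 fell in mdx and Hk1 was lowest in the Sirt6mKO/mdx-labelled libraries. Hk2 encodes the insulin- and HIF-responsive hexokinase of muscle and of growing cells, and Hk1 the widely expressed form. Hk2 (ENSMUSG00000000628, GRCm38 chr6:82725025-82774454, minus strand, downstream of the window printed above) measured 434 and 601 in the control pair, 52 and 62 in the mdx pair, then 667 and 421 in the Sirt6mKO/mdx-labelled pair. Both mdx values were far below the other 4, which overlapped. The log2 fold change was -3.15 ± 0.30 in mdx (8.86-fold lower, adjusted p = 5.6e-06) and 3.20 ± 0.30 from mdx to Sirt6mKO/mdx (9.19-fold higher, adjusted p = 1.1e-05). Against control the Sirt6mKO/mdx-labelled libraries differed by 0.05 with the deposited scaling, with a 95% interval from -0.58 to 0.69. With total counts the fall in mdx was -3.13 and the rise 2.58, and the median of all tested genes against control moved to -0.58. The fall in mdx was called under all 17 alternatives, with -3.38 to -2.91 when single libraries were left out, and the rise was lost only with a single prior variance for all genes (adjusted p = 0.0669).

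Hk1 (ENSMUSG00000037012, GRCm38 chr10:62268855-62379908) measured 536 and 918 in the control pair, 471 and 727 in the mdx pair, then 300 and 279 in the Sirt6mKO/mdx-labelled pair. The last pair lay below all other libraries, and the control and mdx pairs overlapped. It was lower than in mdx, with a log2 fold change of -1.01 ± 0.30 (adjusted p = 0.0449), and lower than in control, with -1.27 ± 0.30 (adjusted p = 0.0155). The first call was lost without mdx 1 (-1.33), mdx 2 (-0.70), Sirt6mKO/mdx 1 (-1.07) or Sirt6mKO/mdx 2 (-0.96) and was -1.64 with total counts. It was also lost with a pseudocount of 0.1 (adjusted p = 0.0633), a pseudocount of 8 (under 2-fold), upper quartile scaling (-0.97), no minimum mean or a single prior variance (adjusted p = 0.183 and 0.247), and 8 of 17 alternatives called it. The second was lost without Control 2 (-0.89), Sirt6mKO/mdx 1 (-1.33) or Sirt6mKO/mdx 2 (-1.22), and with no minimum mean or a single prior variance (adjusted p = 0.116 and 0.183). Gpi1, the isomerase that follows hexokinase, ranged from 305 to 551 over the 6 libraries and was called in no comparison.

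Within the hexokinase pair, per exonic length, Hk2 made up 53.6% and 48.3% in the control pair, 13.6% and 10.9% in the mdx pair, then 76.1% and 68.3% in the Sirt6mKO/mdx-labelled pair. The 3 groups did not overlap. These shares compare genes within a library and do not depend on the scaling. Their level depends on the length used, 8532 exonic bases for Hk1 and 5969 for Hk2, the same in every library. With 2 libraries against 2, an exact permutation test cannot go below p = 0.333, so shares are given without a test.

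Phosphofructokinase, the committed step, has a muscle (Pfkm), a liver (Pfkl) and a platelet (Pfkp) subunit. Pfkp (ENSMUSG00000021196, GRCm38 chr13:6579768-6648777) measured 884 and 845 in the control pair, 247 and 344 in the mdx pair, then 484 and 532 in the Sirt6mKO/mdx-labelled pair. The groups did not overlap, and the last pair stood between the other pairs. The fall in mdx was -1.56 ± 0.25 (adjusted p = 6.4e-04) and was lost only with a single prior variance (adjusted p = 0.0577). From mdx to Sirt6mKO/mdx the difference was 0.80 ± 0.25 (adjusted p = 0.059), and from control to Sirt6mKO/mdx -0.77 ± 0.25 (adjusted p = 0.0706), neither called. Pfkm, the subunit with most of the family's RNA per exonic length in every library (52.4% to 71.6%), measured 311 and 591, 266 and 208, and 433 and 324, and its difference in mdx of -0.86 did not pass (limma adjusted p = 0.0712). Exonic length joins all annotated exons of a gene, 3340 bases for Pfkm and 13401 for Pfkp. Their longest coding transcripts differ less, with 2830 and 4096 stretches of 50 bases, so the order within the family depends on the length used. Pfkl ranged from 54 to 135 and was called in no comparison. The 3 subunits summed to 1319 and 1511 in the control pair, 601 and 606 in the mdx pair, then 1052 and 958 in the Sirt6mKO/mdx-labelled pair.

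Of the PFKFB enzymes, which make and remove the activator of phosphofructokinase, Pfkfb3 is the inducible form with strong kinase activity. Pfkfb3 (ENSMUSG00000026773, GRCm38 chr2:11471430-11502101) measured 594 and 239 in the control pair, 141 and 125 in the mdx pair, then 424 and 451 in the Sirt6mKO/mdx-labelled pair. The mdx pair was lowest and close together, whereas the control pair was spread around the Sirt6mKO/mdx pair. It fell in mdx by 1.50 ± 0.35 on the log2 scale (adjusted p = 0.0086) and rose from mdx to Sirt6mKO/mdx by 1.71 ± 0.35 (adjusted p = 0.0069). The fall was lost without Control 1 (-0.84), mdx 1 (-1.58) or mdx 2 (-1.41), and the rise without mdx 1 (1.80), mdx 2 (1.63), Sirt6mKO/mdx 1 (1.76) or Sirt6mKO/mdx 2 (1.67). Both were lost with no minimum mean (adjusted p = 0.0922 and 0.119) and with a single prior variance (adjusted p = 0.128 and 0.167), and with total counts the rise was 1.09. Its share of the family, per exonic length, was 64.4% and 45.9% in the control pair, 36.9% and 31.6% in the mdx pair, then 58.7% and 70.2% in the Sirt6mKO/mdx-labelled pair. Pfkfb2 (123 to 208) and Pfkfb4 (41 to 91) were called in no comparison.

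**Figure D2:**
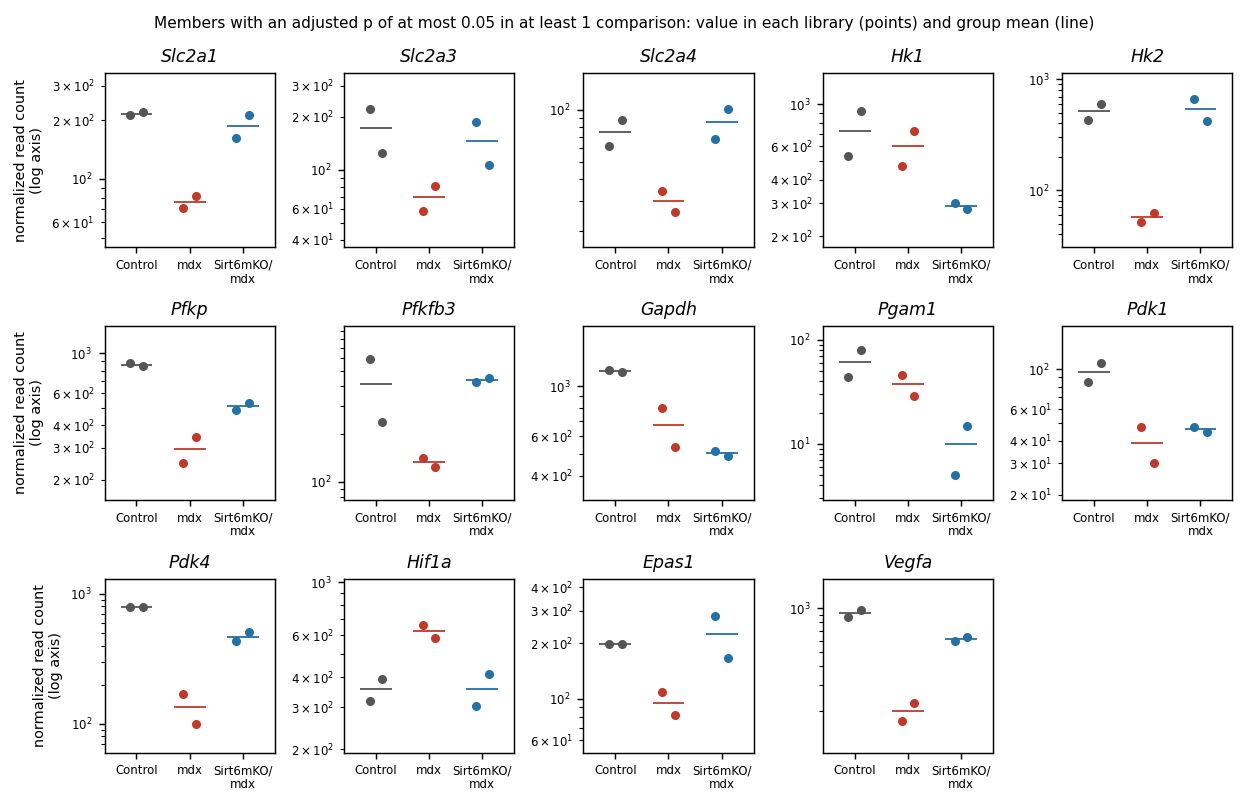
Normalized read count (log axis) of the 14 members with an adjusted p of at most 0.05 in at least 1 comparison, with a point for each of 2 libraries per group and a line for the group mean. Hk2 is at 52 and 62 in mdx against 421 to 667 in the other libraries, and Hk1 is lowest in the Sirt6mKO/mdx-labelled pair.

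The enzymes from aldolase to pyruvate kinase, which carry the energy-yielding steps, are encoded by 11 of the members. None of these was called in mdx or between mdx and the Sirt6mKO/mdx-labelled libraries, where 2.54% to 7.34% of all tested genes were called in either direction, shares too small to set 11 genes apart. Against control 2 of the 11 (Gapdh and Pgam1) were lower in the Sirt6mKO/mdx-labelled libraries, with 2.68% of all tested genes called lower (limma). At an unadjusted p of at most 0.05 stood Gapdh and Eno3 in the first comparison, and Pgk1, Pgam1, Eno1 and Eno3 in the second. Aldoa, which gave the most RNA per exonic length of all 36 genes, measured 2589 and 2997 in the control pair, 2343 and 1488 in the mdx pair, then 2227 and 2128 in the Sirt6mKO/mdx-labelled pair. Its mdx difference of -0.58 had a 95% interval from -1.19 to 0.04. Tpi1, triosephosphate isomerase, was the flattest of the 11, between 412 and 485 in all libraries, with differences of 0.07, -0.06 and 0.01.

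Gapdh measured 1180 and 1158 in the control pair, 802 and 539 in the mdx pair, then 515 and 491 in the Sirt6mKO/mdx-labelled pair. Control was highest and the Sirt6mKO/mdx pair lay below both mdx values. The difference in mdx, -0.83 ± 0.25, passed the adjusted p (0.0364) but not the 2-fold minimum, which it passed without mdx 1 (-1.12), and it was -0.54 without mdx 2. Against control the Sirt6mKO/mdx-labelled libraries were lower (log2 fold change -1.22 ± 0.25, adjusted p = 0.0083), a call lost without Sirt6mKO/mdx 1 (-1.25) or Sirt6mKO/mdx 2 (-1.18), with no minimum mean (adjusted p = 0.0751) and with a single prior variance (adjusted p = 0.143). Of the 50-base stretches of the Gapdh transcript, 82.5% also occur in transcripts of 218 other genes, and reads with several places were left out by the authors, so its value is uncertain.

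Pgam1, the non-muscle phosphoglycerate mutase, measured 44 and 79 in the control pair, 46 and 29 in the mdx pair, then 5 and 15 in the Sirt6mKO/mdx-labelled pair. The last pair was lowest and rests on few reads, 1 read being worth 1.55 and 1.86 there. It was lower than in control (log2 fold change -2.61 ± 0.64, adjusted p = 0.0192), and the difference from mdx, -1.94 ± 0.64, did not pass (adjusted p = 0.0702). The call was lost without Control 2 (-2.20), Sirt6mKO/mdx 1 (-1.91) or Sirt6mKO/mdx 2 (-3.32), and with no minimum mean, a single prior variance or only the groups compared (adjusted p = 0.111, 0.119 and 0.0547). Shared stretches made up 41.5% of Pgam1, 72.2% of Eno1, 68% of Pgk1 and 34.4% of Pkm, so that their values are uncertain as well. Pgam2, the muscle mutase, ranged from 22 to 79 and overlapped between all groups.

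Enolase is encoded by the widespread Eno1, the neuronal Eno2 and the muscle gene Eno3. Eno3 measured 372 and 425 in the control pair, 344 and 166 in the mdx pair, then 557 and 400 in the Sirt6mKO/mdx-labelled pair, and its differences of -0.73 and 0.98 in the first and second comparison did not pass (adjusted p = 0.134 and 0.07). Its share of the enolases per exonic length ran from 46% in mdx 2 to 84.3% in Sirt6mKO/mdx 1, with 75.9% in Sirt6mKO/mdx 2 and 59.3% to 77% in control. The level of this share is uncertain, as it rests on Eno1, of whose stretches 72.2% are shared. It also depends on the length used, 5379 exonic bases for Eno1 and 1739 for Eno3. The 15 muscle fibre markers summed to 11578 and 15285 in the control pair, 8957 and 3303 in the mdx pair, then 17807 and 8768 in the Sirt6mKO/mdx-labelled pair. Mdx 2 was thus lowest and Sirt6mKO/mdx 1 highest in both Eno3 and these markers. Of the 15 markers 6 were called lower in mdx and 6 higher from mdx to Sirt6mKO/mdx (medians -1.16 and 1.03), with 7.34% and 5.62% of all tested genes. None was at 0 in any library. Their part in the values of Eno3 and the other muscle forms was not tested, nor in those of Hk2, Pdk4 and Slc2a4, which were lowest in mdx. Pkm, pyruvate kinase, measured 1130 and 1698, 1412 and 1088, and 862 and 825, lowest in the Sirt6mKO/mdx-labelled pair but called in no comparison. The others, Eno1 (249 to 879), Eno2 (12 to 62), Pgk1 (73 to 249) and Aldoc (2 to 15), were called in no comparison either.

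The lactate dehydrogenase genes did not pass in any comparison. Ldha, the subunit that favours lactate formation and made up 83% to 92.1% of the pair per exonic length, measured 1633 and 1184 in the control pair, 1228 and 806 in the mdx pair, then 978 and 1108 in the Sirt6mKO/mdx-labelled pair. Control and mdx overlapped, and the difference was -0.48 with a 95% interval from -1.07 to 0.11. From mdx to Sirt6mKO/mdx it was 0.07 (-0.52 to 0.65), so with the deposited scaling a doubling or halving of Ldha lies outside this interval. Total counts moved the median of all tested genes in this comparison from 0.02 to -0.58, so the statement does not extend to that scaling. Of the 50-base stretches of Ldha 16.6% also occur in transcripts of 14 other genes. Ldhb ranged from 33 to 115. Of the lactate transporters, Slc16a3 (MCT4, the exporter of glycolytic cells) measured 148 and 56, 22 and 46, and 70 and 71, and its differences of -1.49 ± 0.51 and 1.12 ± 0.51 did not pass (adjusted p = 0.0587 and 0.185). Slc16a1 (MCT1), the more abundant of the pair per exonic length in every library (79.1% to 97%), measured 467 and 620 in the control pair, 600 and 394 in the mdx pair, then 371 and 391 in the Sirt6mKO/mdx-labelled pair and was called in no comparison.

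At the branch to the mitochondria, Pdk4 and Pdk1 fell in mdx and Pdk2 passed in no comparison, all 3 encoding kinases that switch off pyruvate dehydrogenase. Pdk4, induced by fasting and by fatty acids, measured 787 and 790 in the control pair, 171 and 100 in the mdx pair, then 432 and 506 in the Sirt6mKO/mdx-labelled pair (ENSMUSG00000019577, GRCm38 chr6:5483351-5496309). The 3 pairs did not overlap, with mdx lowest. The fall in mdx was -2.58 ± 0.28 (5.99-fold, adjusted p = 2.1e-05), called under all 17 alternatives, and the rise from mdx to Sirt6mKO/mdx was 1.83 ± 0.28 (3.55-fold, adjusted p = 9.4e-04). The rise was 1.72 and lost its call without Sirt6mKO/mdx 2 (adjusted p = 0.0521). It was also lost with no minimum mean (adjusted p = 0.0529) and with a single prior variance (adjusted p = 0.108), and it was 1.20 with total counts. Against control the Sirt6mKO/mdx-labelled libraries differed by -0.75 ± 0.28, which did not pass (adjusted p = 0.112).

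Pdk1, a known HIF target, measured 85 and 109 in the control pair, 48 and 30 in the mdx pair, then 48 and 45 in the Sirt6mKO/mdx-labelled pair. The mdx and Sirt6mKO/mdx pairs overlapped, both below control. The fall in mdx of -1.32 ± 0.43 (adjusted p = 0.0492) stood just inside the threshold and was called under 3 of 17 alternatives. It was lost whichever single library was left out, at -1.50 and -1.14 without Control 1 and Control 2, -1.65 and -0.99 without mdx 1 and mdx 2, and -1.32 without either Sirt6mKO/mdx library. It was also lost under every setting but a pseudocount of 8, upper quartile scaling and a robust prior variance, with adjusted p from 0.0508 to 0.0981. Pdk2 (128 to 214) was called in no comparison and its share of the 3 kinases per exonic length was 14.7% and 22.1% in the control pair, 45% and 57.6% in the mdx pair, then 31.4% and 25.7% in the Sirt6mKO/mdx-labelled pair, as that of Pdk4 went from 81.3% and 73.4% to 48.8% and 37.3% and then 65.3% and 71.4%. Pdha1, the catalytic subunit of the complex, measured 353 and 511, 567 and 514, and 275 and 380. The mdx pair was highest, with differences of 0.35 and -0.74 that did not pass (adjusted p = 0.417 and 0.102), and 16.1% of its exonic bases lie antisense to Map3k15, whose reads cannot be told apart if the counting did not use strand.

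**Figure D3:**
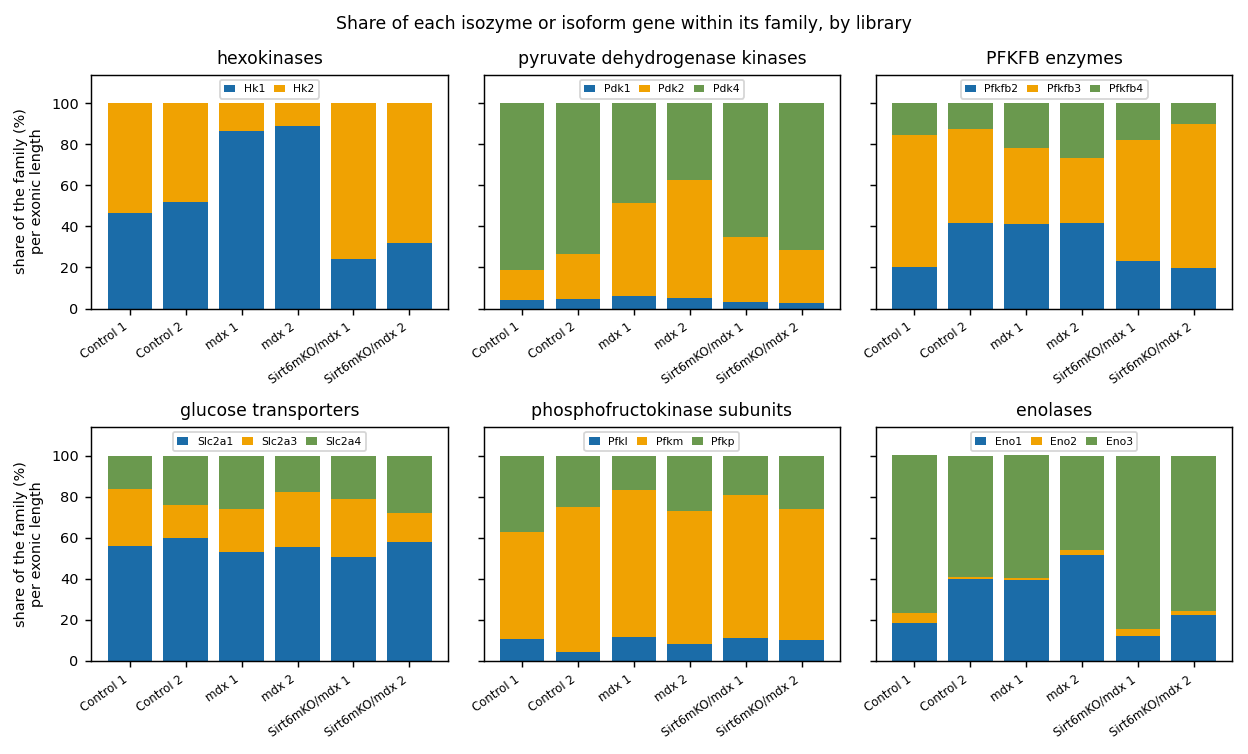
Stacked bars give the share in percent, per exonic length, of each gene within 6 isozyme families in each of the 6 libraries. The level of a share depends on the length used, and that of the enolases also on the uncertain value of Eno1. Hk2 is at 10.9% to 13.6% of the hexokinases in mdx and 48.3% to 76.1% in the other 4 libraries, while the shares of Slc2a1 stay between 50.7% and 59.7%.

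Of the HIF genes, Hif1a stood higher and Epas1 lower in both mdx libraries than in control. Hif1a, the broadly expressed oxygen-regulated subunit, which is controlled largely at the protein level, measured 320 and 393 in the control pair, 664 and 583 in the mdx pair, then 303 and 413 in the Sirt6mKO/mdx-labelled pair. Both mdx values were above the other 4. The difference of 0.81 ± 0.26 passed the adjusted p (0.0428) but not the 2-fold minimum, and it was 0.47 after centring by GC content. From mdx to Sirt6mKO/mdx it was -0.81 ± 0.26 (adjusted p = 0.0611). Overlapping genes cover 8.11% of the exonic bases of Hif1a.

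Epas1, which encodes HIF2α, measured 199 and 198 in the control pair, 109 and 82 in the mdx pair, then 280 and 166 in the Sirt6mKO/mdx-labelled pair. The mdx pair was lowest and the other pairs overlapped. Its log2 fold changes were -1.06 ± 0.32 (adjusted p = 0.0347) and 1.18 ± 0.32 (adjusted p = 0.0337). The first was lost without Control 1 (-1.06), Control 2 (-1.07), mdx 1 (-1.27), mdx 2 (-0.86) or Sirt6mKO/mdx 1 (-1.06), and with GC centring (-0.79), total counts (-1.04), only the groups compared, no minimum mean or a single prior variance (adjusted p = 0.115, 0.0508, 0.0518, 0.109 and 0.147), so that 7 of 17 alternatives called it. The second was lost without mdx 1 (1.38), mdx 2 (0.98), Sirt6mKO/mdx 1 (0.81) or Sirt6mKO/mdx 2 (1.56), and with total counts (0.56), GC centring (1.03), no minimum mean or a single prior variance (adjusted p = 0.253, 0.0654, 0.141 and 0.187), and 9 of 17 alternatives called it. The prolyl hydroxylase genes Egln1 (106 to 272) and Egln3 (12 to 42), the latter itself a HIF target, were called in no comparison and overlapped between groups in all 3.

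Vegfa, the angiogenic growth factor and a classic HIF target, measured 873 and 975 in the control pair, 169 and 225 in the mdx pair, then 599 and 635 in the Sirt6mKO/mdx-labelled pair (ENSMUSG00000023951, GRCm38 chr17:46016993-46032377). The pairs were tight and did not overlap. It fell in mdx by 2.24 ± 0.25 on the log2 scale (4.71-fold, adjusted p = 2.5e-05), called under all 17 alternatives, and rose from mdx to Sirt6mKO/mdx by 1.66 ± 0.25 (3.15-fold, adjusted p = 7.4e-04), lost only with a single prior variance (adjusted p = 0.097) and 1.03 with total counts. Against control the difference was -0.58, with a 95% interval from -1.11 to -0.05 and an adjusted p of 0.166. The 6 endothelial markers summed to 905 and 752 in the control pair, 407 and 403 in the mdx pair, then 610 and 631 in the Sirt6mKO/mdx-labelled pair, most of it Tek (348 to 669). Of these 4 could be tested, and 2 were called lower in mdx and none in the other comparisons. Cldn5 was at 0 in both control libraries and mdx 1, Kdr was at 0 in mdx 2, and Emcn was at 0 in both Sirt6mKO/mdx-labelled libraries. Cells carrying CD31, an endothelial surface protein, had been removed before the sort, and the part of these markers in the values of Vegfa and Epas1 was not tested.

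**Figure D4:**
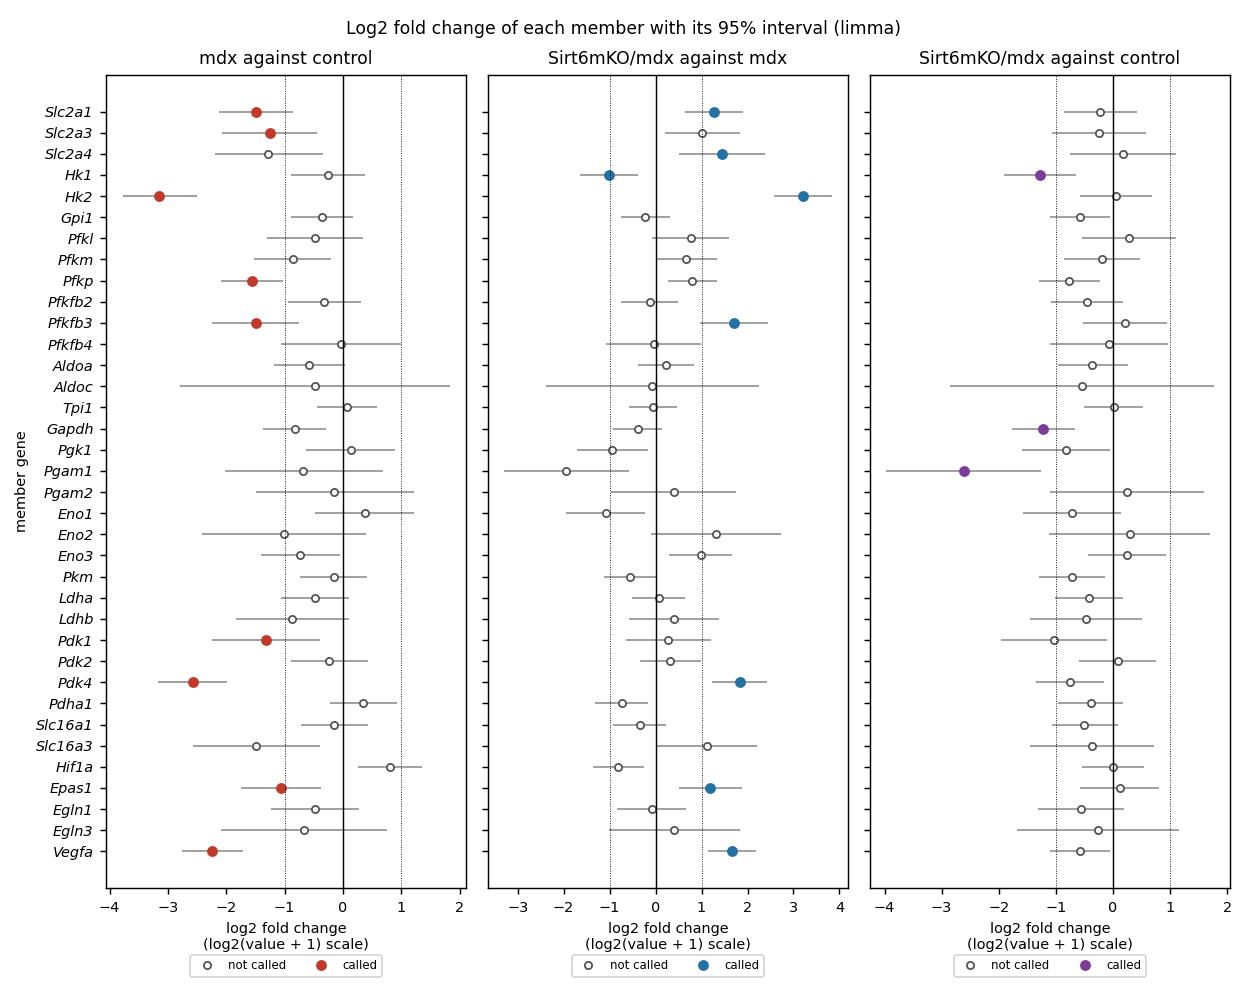
Log2 fold change on the log2(value + 1) scale of each of the 36 members in the 3 comparisons, with 95% intervals from limma, filled where called, and dotted lines at the 2-fold minimum. Hk2, Pdk4 and Vegfa lie farthest left in mdx against control and, with Pfkfb3, farthest right among the members between mdx and the Sirt6mKO/mdx-labelled libraries.

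Other genes of the response to low oxygen were taken from lists. Of 30 further HIF target genes 9 were called lower in mdx and none higher (median -0.35), with 7.34% and 6.89% of all tested genes. From mdx to Sirt6mKO/mdx 4 were higher and 1 lower (median 0.63), with 5.62% and 2.54% of all tested genes. From control to Sirt6mKO/mdx 2 were higher and 5 lower (median 0.02), with 5.19% and 2.68%. Bhlhe40, a transcriptional repressor, measured 724 and 1225 in the control pair, 117 and 163 in the mdx pair, then 385 and 417 in the Sirt6mKO/mdx-labelled pair. Mdx was lowest and the last pair lay between, with log2 fold changes of -2.76 and 1.53 (adjusted p = 1.6e-05 and 0.0046). Car12, a carbonic anhydrase, did not follow this order, at 230 and 1004, 37 and 19, and 2 and 6, lower in mdx (log2 fold change -4.13) and lower again from mdx to Sirt6mKO/mdx (-2.59, adjusted p = 7.7e-04 and 0.0275 in turn). P4ha1, a collagen prolyl hydroxylase, was lower in mdx (546 and 501) than in control (1843 and 2414, log2 fold change -2.01, adjusted p = 6.7e-05), with 771 and 836 in the Sirt6mKO/mdx-labelled pair. Angptl4, also a target of PPARs, was higher in the Sirt6mKO/mdx-labelled pair (1001 and 953) than in mdx (615 and 146) and control (219 and 99). Of 13 regulators of HIF, Siah2, a ubiquitin ligase that acts on prolyl hydroxylases, was the only one called, at 373 and 349, 42 and 67, and 167 and 181, in all 3 comparisons (-2.74, 1.69 and -1.05, limma adjusted p = 3.3e-05, 0.0038 and 0.0488). With 7.34% of all tested genes called lower in mdx, 1 call among 13 does not set this list apart.

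Calls in neighbouring pathways are to be read against 7.34% of all tested genes called lower and 6.89% higher in mdx, 2.54% and 5.62% from mdx to Sirt6mKO/mdx, and 2.68% and 5.19% from control to Sirt6mKO/mdx. Of 32 tested other genes of glycolysis and pyruvate metabolism, Dld, a subunit of pyruvate dehydrogenase, was higher in mdx (1.34) and the transporter gene Slc2a12 lower (-1.26), and none was called in the other comparisons. In the pentose phosphate pathway (10 genes) Rpe was higher in mdx (1.05) and G6pdx, the entry enzyme, was lower from mdx to Sirt6mKO/mdx (-1.98, adjusted p = 0.02), with 33 and 71, 94 and 140, and 23 and 35. In glycogen metabolism (18 genes) Pygm, muscle glycogen phosphorylase, was lower in mdx (-1.34) and higher from mdx to Sirt6mKO/mdx (1.13), Ppp1r3c was lower in mdx (-2.13), and Gaa was lower from control to Sirt6mKO/mdx. None of the 18 genes of the tricarboxylic acid cycle was called in mdx (median 0.51, libraries separated for 12 higher and none lower, with 28.7% and 28.3% of all tested genes separated), and Idh3a was the only one called lower from mdx to Sirt6mKO/mdx (-1.05, median of the list -0.45, libraries separated for 16 lower and none higher, with 27.2% and 28.8% of all tested genes separated). Of 23 tested genes of fatty acid oxidation and PPAR targets, Acadl (1.29) and Slc25a20 (1.48) were higher in mdx, Cd36 was higher from mdx to Sirt6mKO/mdx (2.72), and Slc25a20 was higher from control to Sirt6mKO/mdx (1.76).

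Immediate early genes, which cells induce within minutes of a stimulus such as enzymatic dissociation, were also low in mdx. Of 20 genes 19 were called lower in mdx (median -2.84) and 19 higher from mdx to Sirt6mKO/mdx (median 2.48), and 1 was higher and 2 were lower from control to Sirt6mKO/mdx. Counts here too are to be read against 7.34% of all tested genes called lower and 6.89% higher in mdx. These shares were 2.54% and 5.62% from mdx to Sirt6mKO/mdx, and 2.68% and 5.19% from control to Sirt6mKO/mdx. Their summed value was 83853 and 90035 in the control pair, 11854 and 13523 in the mdx pair, then 74048 and 78253 in the Sirt6mKO/mdx-labelled pair, with none at 0. Mdx was lowest, as for Hk2, Pdk4, Pfkfb3, Pfkp, Slc2a1, Slc2a3, Slc2a4, Epas1 and Vegfa, and the part of this response in those values was not tested. Hk1, Gapdh and Pgam1 did not follow this order, being lowest in the Sirt6mKO/mdx-labelled pair, nor did Pdk1, which measured 48 and 45 there. Proliferation genes stood the other way, 6 of 12 being called higher in mdx (median 1.64), 4 lower from mdx to Sirt6mKO/mdx (median -0.96) and none from control to Sirt6mKO/mdx (median 0.95). Fibro-adipogenic genes summed to 18184 and 25059 in the control pair, 35506 and 29787 in the mdx pair, then 19251 and 26768 in the Sirt6mKO/mdx-labelled pair, most of it Col3a1 (15579 to 30817). Of 6 such genes 2 were called higher in mdx (Col1a1 and Ly6a) and Col1a1 was called lower from mdx to Sirt6mKO/mdx. Smooth muscle and pericyte genes summed to 1065 and 1887 in the control pair, 3075 and 2518 in the mdx pair, then 1329 and 1820 in the Sirt6mKO/mdx-labelled pair, and 1 of 5, Acta2, was called higher in mdx. Leukocyte genes summed to 79 to 200, with Ptprc at 0 in both control libraries. Of 6 tested, Lyz2 was called higher in mdx and from control to Sirt6mKO/mdx, and Cd68 lower in mdx. Erythroid genes summed to 7 to 91, with Hbb-bs called higher from mdx to Sirt6mKO/mdx, and Schwann cell genes to 23 to 73 with no call. Cells carrying Sca1, the product of Ly6a, or CD45, that of Ptprc, had been removed before the sort, and the part of these markers in the members' values was not tested. Of the 10 MuSC markers 1, Sdc4, a surface proteoglycan, was called in all 3 comparisons, at 7692 and 6224 in the control pair, 1100 and 1049 in the mdx pair, then 2753 and 2822 in the Sirt6mKO/mdx-labelled pair (log2 fold changes -2.69, 1.37 and -1.31, adjusted p = 1.3e-05, 0.0067 and 0.0087).

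**Figure D5:**
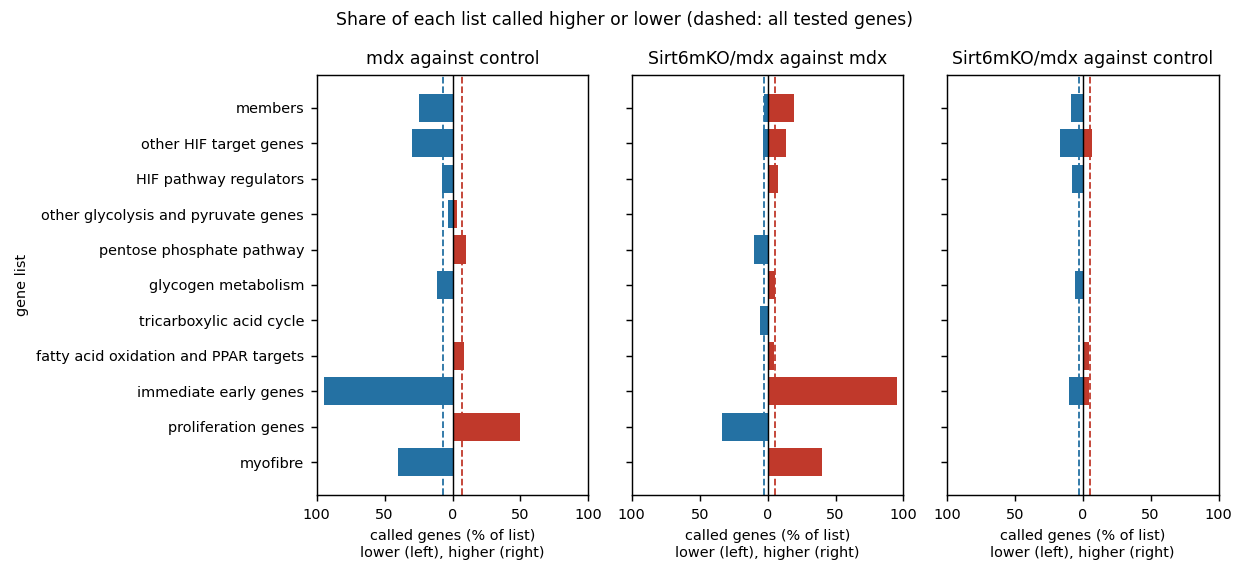
Bars give the percentage of the tested genes of each list called lower (left) or higher (right) in the 3 comparisons, and dashed lines the percentage over all tested genes. Of the members 9 of 36 and of other HIF target genes 9 of 30 are called lower in mdx. Immediate early genes are called lower in mdx (19 of 20) and higher from mdx to Sirt6mKO/mdx (19 of 20), and proliferation genes and muscle fibre markers hold calls in both of these comparisons.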

How the data were processed

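RNA of sorted MuSCs was measured in 6 libraries of 3 groups, mapped from the sample titles. Per the labels and the methods, the authors removed ribosomal RNA, sequenced on an Ion Torrent instrument, used Reaper for trimming, STAR for alignment to mm10 (GRCm38) and featureCounts 1.4.5-p1 for counting without reads of several genes or places, and then normalized with DESeq2. The deposited unit is a score, a normalized read count already divided by size factors and rounded by the authors, so no count test was run. The use of strand was not stated. The table had 0 columns that matched no sample.

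Size factors and approximate reads were recovered from the spacing of whole values. Values entered limma 3.58.1 (R 4.3.3) as log2(value + 1), the prior variance following the mean, with all 6 libraries in one fit and no block, over 15915 genes with a mean of at least 5. A fold change on this scale understates that of low genes. A call needed a change of at least 2-fold and, over all tested genes, a two-sided Benjamini-Hochberg adjusted p of at most 0.05. The members and lists were chosen with earlier results of these data known. Named with full values are members with an adjusted p of at most 0.05 in at least 1 of the 3 comparisons, the main isozyme of each other role, Eno3, Pkm, Pdha1 and Slc16a3, added after their values were seen, and at most 4 called genes per list and comparison, of which 1 gene is not reported here. Lengths and overlaps came from GENCODE annotation of GRCm38, which held 98.5% of gene identifiers, and shared stretches were exact matches of 50 bases between transcripts. Exonic length joined all annotated exons of a gene, so the level of a share within a family depends on it. The 17 alternatives varied the pseudocount, filter, scaling, prior variance, groups fitted, replicate block, GC centring and single libraries.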

Additional observations from a re-analysis of the deposited data

How the results depend on the processing

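Of 373 alternatives for the 22 values of single members, 271 kept direction and side of the threshold, 101 kept the direction but lost the call, 1 gained one and 0 reversed. With no minimum mean, members called lower numbered 5 in mdx against control and 0 in the other comparisons, where 2.54%, 0.0623% and 0.231% of all genes were, and 2 were called higher from mdx to Sirt6mKO/mdx (0.685%). With a single prior variance for all genes, 3 were called lower in mdx against control and 0 in either direction in the other comparisons (limma), with 2.26%, 0% and 0.138% of all tested genes called lower, and 18 and 10 members, and 25.2% and 24.1% of all tested genes, stood at an unadjusted p of at most 0.05 in the fit as reported. Total counts gave 4 higher and 8 lower members from mdx to Sirt6mKO/mdx (median -0.32), where 3.01% and 18.5% of all tested genes were called, and 15 lower from control to Sirt6mKO/mdx (median -0.98), where 17% were, each with a median of -0.58 over all tested genes. Centring by GC content gave medians of -0.39 in mdx against control and 0.03 from mdx to Sirt6mKO/mdx. The single lower call from mdx to Sirt6mKO/mdx, Hk1, became 0 with a pseudocount of 0.1 or 8 or upper quartile scaling, and 2 with only the groups compared. Without single libraries, members called higher numbered 0 to 1 in mdx against control and 2 to 7 from mdx to Sirt6mKO/mdx, and members called lower 5 to 8, 0 to 2 and 0 to 4 in the 3 comparisons, with medians of -0.86 to -0.32, -0.05 to 0.55 and -0.45 to -0.30. The shared replicate numbers did not pair the libraries, as deviations of same-numbered libraries correlated across genes at -0.128, 0.00934 and 0.119. With a replicate block 2 members were called lower from mdx to Sirt6mKO/mdx and Pdk1 lost its call (adjusted p = 0.0519). With 2 libraries per group and 1 read worth 0.655 to 1.86, the standard error of a log2 fold change was largest for Aldoc (1.08), Egln3 (0.67), Eno2 (0.66), Pgam1 and Pgam2 (0.64 each).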
